A study of Mus musculus with 36 samples.

Results

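The response of Ift88-depleted cells to 1 h of interleukin-1β (IL-1β) was measured as the difference between 3 RNA sequencing libraries made after 1 h with the cytokine and 3 made at 0 h, in medium only. The members were these 6 libraries, taken by their labels, of 36 in the series. Throughout the series a conditionally immortalised line of mouse fibroblast-like chondrocytes, labelled wild type, was transfected by lipofection with an siRNA pool against Ift88 (IFT88siRNA) or with a non-targeting pool (NT), and was then left in medium only or given IL-1β at 10 ng/ml. Libraries were made in triplicate for each of 12 conditions, at 0 h and after 1, 2, 4, 8 or 24 h. The 6 NT libraries of 0 h and 1 h were used to test whether the response differed between the siRNA groups. The cells are 1 line in culture, the depletion acts on mRNA and is partial, and all groups had been exposed to transfection reagent. None of the groups used here was mock-treated for 1 h, so the effect of IL-1β and that of handling the cultures cannot be told apart. The labels do not say whether the 3 libraries of a group came from separate cultures, so the p-values measure the spread between libraries, which may be technical.

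IL-1β binds the receptor IL1R1 together with its accessory protein IL1RAP, and the adaptor MYD88 and the IRAK kinases pass the signal to the IKK complex and to the MAP kinases. IKK marks the inhibitor IκBα for destruction, which frees NF-κB dimers to enter the nucleus, while the MAP kinases act on the AP-1 and serum response factors. The first genes to be transcribed need no new protein, and they include chemokines that draw in leukocytes, transcription factors of the next wave and the inhibitors that shut the pathway down again. IFT88 is a subunit of the IFT-B complex that carries cargo along the primary cilium, and in cartilage IL-1β is known for driving matrix breakdown.

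The targeted gene was checked first. Ift88 was at 2.59, 2.88 and 2.82 CPM (counts scaled by library size with TMM factors) in replicates 1 to 3 at 0 h and at 2.86, 3.1 and 2.8 CPM after 1 h of IL-1β. The NT libraries held 9.17, 8.66 and 9.36 CPM at 0 h and 9.83, 10.2 and 9.15 CPM at 1 h. Every depleted library was thus below every NT library, and the depleted groups overlapped each other (log2 fold change at 1 h 0.080, SE 0.14, adjusted p = 0.673, edgeR quasi-likelihood test with Benjamini-Hochberg adjustment). The gene counts of a library totalled 24636891 to 27468632 in the 6 depleted libraries and 19337022 to 23736137 in the 6 NT libraries, and the reads carry no molecular identifiers, so the precision of this depth covers counting error only. Replicates differed by more than counting noise, with a chi-square per degree of freedom between pairs of 1.96 to 6.61. The library IFT88siRNA 0 h replicate 2 stood apart for a few genes, with 626 CPM of Gm23935, a gene annotated as a miRNA, against 131 and 162 CPM in the others of its group. All 8 fibroblast markers were at 1 CPM or more and summed to 10400 to 11500 CPM at 0 h and to 11800 to 12100 CPM at 1 h. Of 11 chondrocyte markers, 6 reached 1 CPM at 0 h and 5 at 1 h, with the cartilage proteoglycan gene Acan and the matrilin gene Matn1 below that level, so the line is called fibroblast-like here by its labels and its markers. In the depleted libraries markers of macrophages summed to at most 8.11 CPM and those of endothelium, epithelium and muscle to at most 3.74 CPM, and in the NT libraries to at most 8.69 and 5.55 CPM.

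The promoters of 6 genes on which the results turn are printed here to show the letters that lie upstream of them, from RefSeq on build GRCm38.p6. Capitals mark a match on either strand to the NF-κB consensus, or in Egr2 to the CArG box that serum response factor reads, and each sequence runs 5′ to 3′ on the strand of its gene and stops before the annotated transcript. Cxcl1 (chr5:90890995-90891240, plus strand) and Cxcl2 (chr5:90903649-90903870, plus strand) carry the same run of 11 capitals. It lies at 71 to 61 bases before the RefSeq start in Cxcl1 and at 97 to 87 in Cxcl2. The printed sequences of Cxcl1, Cxcl2 and Atf3 leave out 4, 28 and 7 bases of their windows. In Cxcl1 and Cxcl2 the bases left out lie between the printed end and the RefSeq start. Both runs are thus closer to the printed end than these positions, and at more nearly equal distances from it. Nfkbia (chr12:55492648-55492897, minus strand) has its match at 29 to 20 bases, and Egr2 (chr10:67537619-67537868, plus strand, the third of its 5 annotated starts) at 72 to 63 bases. Icam1 (chr9:21015690-21015939, plus strand) and Atf3 (chr1:191183341-191183583, minus strand) hold no match to either motif in these windows.
Cxcl1: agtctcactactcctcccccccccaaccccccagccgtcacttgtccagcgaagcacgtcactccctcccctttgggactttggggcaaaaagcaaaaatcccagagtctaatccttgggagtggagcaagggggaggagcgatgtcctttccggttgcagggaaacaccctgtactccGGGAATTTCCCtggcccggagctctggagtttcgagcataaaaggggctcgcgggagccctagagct
Cxcl2: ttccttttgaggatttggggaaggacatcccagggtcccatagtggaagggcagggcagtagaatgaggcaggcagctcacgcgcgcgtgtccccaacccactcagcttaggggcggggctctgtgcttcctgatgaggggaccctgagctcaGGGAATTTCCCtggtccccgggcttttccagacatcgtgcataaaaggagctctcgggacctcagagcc
Nfkbia: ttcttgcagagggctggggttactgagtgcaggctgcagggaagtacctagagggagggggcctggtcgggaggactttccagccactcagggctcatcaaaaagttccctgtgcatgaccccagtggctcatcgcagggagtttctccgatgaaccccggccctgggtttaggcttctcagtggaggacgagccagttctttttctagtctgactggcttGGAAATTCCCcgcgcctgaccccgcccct
Egr2: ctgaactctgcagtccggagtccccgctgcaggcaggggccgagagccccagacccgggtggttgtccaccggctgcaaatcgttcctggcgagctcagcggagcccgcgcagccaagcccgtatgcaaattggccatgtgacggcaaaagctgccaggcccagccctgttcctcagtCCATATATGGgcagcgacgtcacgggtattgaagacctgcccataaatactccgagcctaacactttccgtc
Icam1: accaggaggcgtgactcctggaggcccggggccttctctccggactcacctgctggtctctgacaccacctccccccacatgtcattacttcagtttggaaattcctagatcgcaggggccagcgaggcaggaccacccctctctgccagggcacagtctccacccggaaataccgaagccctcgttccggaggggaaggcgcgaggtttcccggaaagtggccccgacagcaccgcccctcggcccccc
Atf3: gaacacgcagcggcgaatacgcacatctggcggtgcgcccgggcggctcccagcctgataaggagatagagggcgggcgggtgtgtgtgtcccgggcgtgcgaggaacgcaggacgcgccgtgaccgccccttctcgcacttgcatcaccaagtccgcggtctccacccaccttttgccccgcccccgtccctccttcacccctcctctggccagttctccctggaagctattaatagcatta

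In depleted cells 1 h of IL-1β raised 1075 genes (7.13% of the 15074 tested) and lowered 1298 genes (8.61%), at an adjusted p under 0.05 and a fold change over 1.5. Both shares are the background for the counts of each gene list below. The rises were steeper than the falls: 152 genes rose more than 4-fold against 34 that fell as far, and 37 rose more than 16-fold against 1 that fell as far. Genes raised at 1 h took 6.2% of the counts at 0 h and 14.9% at 1 h, and the median of all genes tested was -0.00405 on the log2 scale. All 3 libraries at 1 h lay above all 3 at 0 h for 4271 genes (28.3%) and below them for 4228 (28%), so a gap between the groups is common and is read below only beside the test. With upper-quartile scaling in place of TMM the split was 887 raised and 1656 lowered, and on TPM values it was 650 and 1265. Of the genes called on TPM, 582 were among the 1075 raised and 786 among the 1298 lowered. With 3 libraries a side the smallest p of an exact permutation test is 0.1, which is why the tests here borrow the spread across genes. In bulk RNA, fewer cells that express a gene and less RNA of it per cell cannot be told apart.

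**Figure D1:**
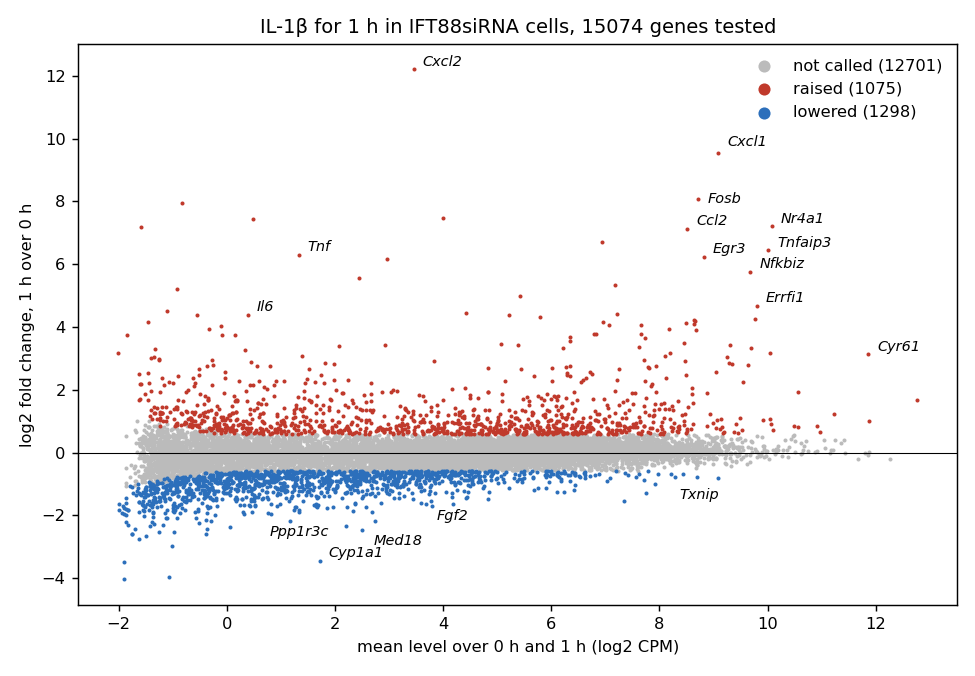
Each point is a gene tested in IFT88siRNA cells, with its mean level over the 6 libraries (log2 CPM) on the x axis and its log2 fold change at 1 h over 0 h on the y axis, coloured by call. The 1075 raised genes reach far higher than the 1298 lowered genes reach down, and lowered genes crowd at low levels. Cxcl2 had no count at 0 h, so its plotted fold change depends on the prior count.

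Of the genes that carry the IL-1 signal to NF-κB, most subunits and more than 1 in 2 of the inhibitors rose, whereas the share raised at the receptor was near that of all genes. In the list of IL-1 receptor, adaptor and kinase genes, 2 of 25 tested rose (8%, against 7.13% of all genes tested) and none fell (median log2 fold change 0.163). Il1rap, the receptor's accessory chain, was at 70.8, 63.6 and 70.5 CPM at 0 h and at 79.9, 77.4 and 77.2 CPM at 1 h, a separation without overlap whose size (0.19 on the log2 scale, SE 0.050) was under the fold threshold. Map3k8, the kinase TPL2 that links IKK to ERK, was at 4.02, 3.66 and 2.61 CPM at 0 h and at 76.6, 65.3 and 71.2 CPM at 1 h. It rose 20.6-fold (log2 4.37, SE 0.10, adjusted p = 9.32e-18). Irak2, a signalling kinase of the receptor complex, rose 1.79-fold, from 17.6, 16.1 and 18.3 CPM to 30.4, 29.6 and 33.2 CPM (adjusted p = 8.43e-09).

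Among the NF-κB subunits, 4 of 5 rose and none fell (median 1.27). Rel rose most, from 24.9, 26.4 and 26.7 CPM to 94.6, 87.6 and 102 CPM (3.64-fold, adjusted p = 2.31e-15). Relb rose 3.47-fold and Rela, the p65 subunit, 2.42-fold, from 93.7, 98.1 and 96.5 CPM to 226, 232 and 238 CPM. Nfkb2 rose less (120.3, 129 and 119 CPM at 0 h, 182, 214 and 213 CPM at 1 h, 1.65-fold), and Nfkb1 (0.13 on the log2 scale, SE 0.042) was under the fold threshold.

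Of 19 inhibitors and feedback genes of NF-κB, 11 rose and none fell (median 1.52). Tnfaip3 encodes A20, the enzyme that strips signalling ubiquitin from the receptor complex, and stood at 24.2, 24.1 and 21.9 CPM at 0 h and at 2069, 2095 and 1956 CPM at 1 h. It rose 87-fold (log2 6.44, SE 0.059, adjusted p = 6.82e-24). Nfkbiz, a nuclear IκB that lets NF-κB start its secondary targets, went from 30.9, 30.7 and 28.3 CPM to 1640, 1591 and 1610 CPM, or 53.8-fold (adjusted p = 8.32e-24). Nfkbia, which encodes IκBα itself and whose promoter is printed above, held 45.5, 45.5 and 42.3 CPM at 0 h and 739, 784 and 739.6 CPM at 1 h. The groups were far apart, at 17-fold (log2 4.08, SE 0.052, adjusted p = 1.04e-21). Nfkbid, another nuclear IκB, rose from 8 counts in all at 0 h to 1.6, 1.12 and 1.81 CPM at 1 h.

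Chemokines included the steepest rises. Of 14 CXC chemokines with a count 10 were tested, of which 7 rose (70%) and 2 fell (20%, median 1.57). Cxcl2 passed the count filter only through its 1 h libraries, so the share raised is fixed in part. Cxcl1, a neutrophil attractant on chromosome 5 (90891241 to 90893115), stood at 1.26, 1.65 and 1.45 CPM at 0 h and at 1102, 1047 and 1106 CPM at 1 h. That is a rise of 744-fold (log2 9.54, SE 0.077, adjusted p = 2.56e-24). Its neighbour Cxcl2 (90903871 to 90905938), of like function, had no count in the 3 libraries at 0 h and 19.4, 20.9 and 25.6 CPM at 1 h, at least 629-fold higher against a floor of 3 counts over the group (adjusted p = 6.64e-15). Cxcl10, an attractant of T cells that interferons also induce, rose 18.6-fold from 44.4, 37.1 and 40.2 CPM to 765, 714 and 786 CPM (adjusted p = 9.21e-21). Cxcl5 rose 8.5-fold, to 5.26, 4 and 4.81 CPM, from under 1 CPM in each 0 h library. The members that fell, Ppbp and Cxcl15, were at 1.43 CPM or less in every library and were chosen for mention after their values were seen.

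Of 18 CC chemokine and fractalkine genes with a count 9 were tested, of which 6 rose (66.7%) and none fell (median 1.05). Ccl20 passed the filter only through its 1 h libraries, so this share is fixed in part too. Ccl2, the monocyte attractant MCP-1, held 5.32, 5.03 and 5.29 CPM at 0 h and 742, 687 and 749 CPM at 1 h. It rose 139-fold (log2 7.12, SE 0.066, adjusted p = 6.82e-24), and the adjacent Ccl7 on chromosome 11 rose 104-fold, from 2.39, 2.29 and 2.33 CPM to 264, 218 and 245 CPM. Ccl20, which attracts cells that carry CCR6, was at 0.239, 0.141 and 0.247 CPM at 0 h and at 16.1, 13.7 and 16.4 CPM at 1 h (72.1-fold, adjusted p = 7.30e-16). Ccl9 rose 7.27-fold to 6.57, 5.94 and 6.09 CPM.

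**Figure D2:**
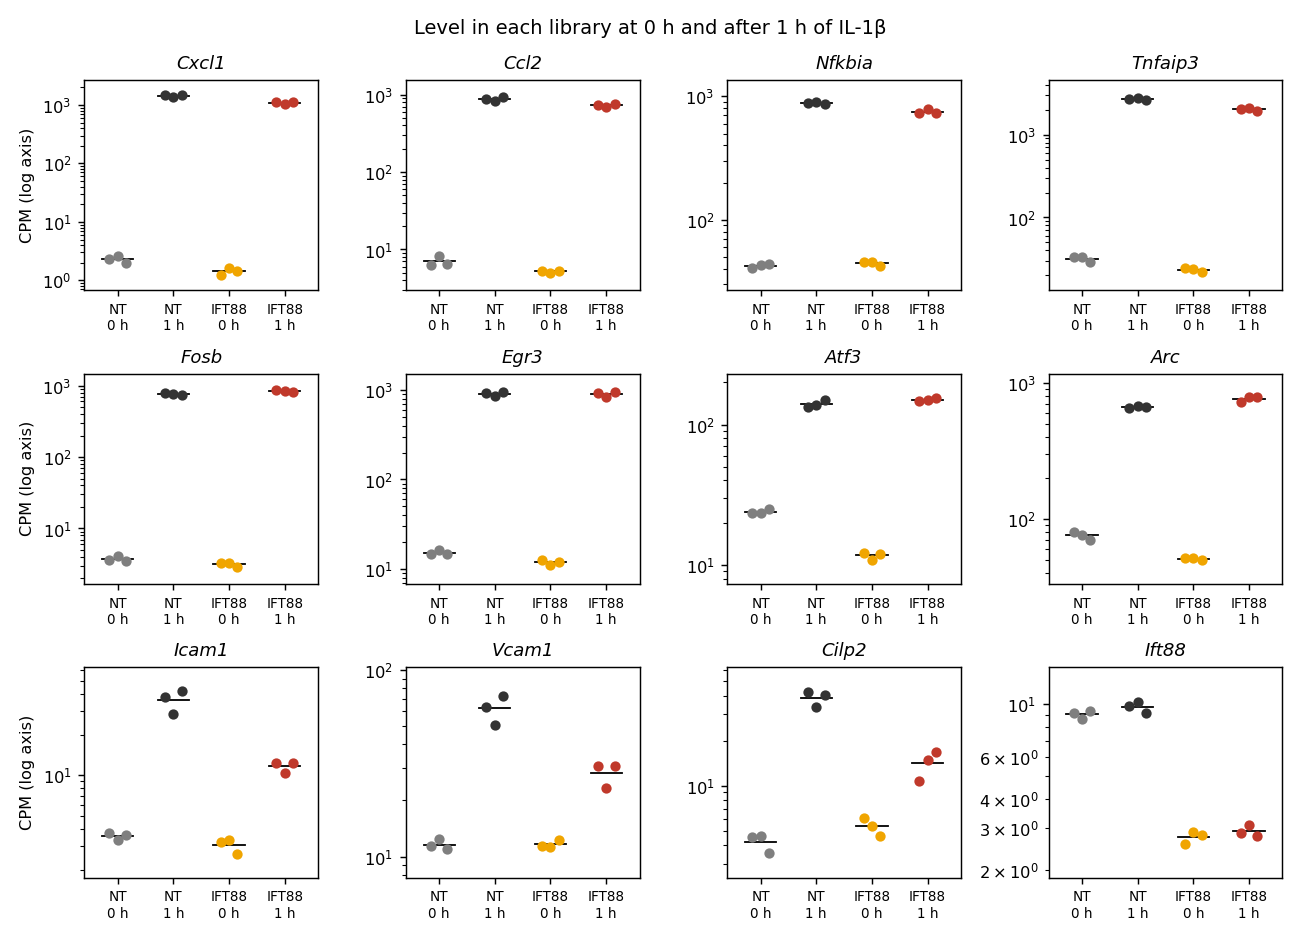
Each panel shows 1 gene, with a point for each of the 3 libraries in the NT and IFT88siRNA groups at 0 h and 1 h and a bar at the group mean (CPM, log axis with its own range in each panel). In both siRNA groups every gene but Ift88 is higher at 1 h in all libraries. The 1 h points of IFT88siRNA lie wholly below those of NT for Icam1, Vcam1, Cilp2, Cxcl1, Ccl2, Nfkbia, Tnfaip3 and Ift88. The 0 h points do so for Atf3, Arc, Cxcl1, Ccl2, Tnfaip3, Fosb, Egr3 and Ift88. They lie wholly above those of NT for Fosb and Arc at 1 h and for Cilp2 at 0 h.

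Cytokines rose from low levels: of 23 with a count 14 were tested, of which 9 rose (64.3%) and none fell (median 1.33). Tnf, Il6 and Csf3 passed the count filter only through their 1 h libraries, so this share is fixed in part. Tnf was at 0.0682, 0.0352 and 0.0706 CPM at 0 h and at 4.5, 4.11 and 6.29 CPM at 1 h, a rise of 79-fold from 5 counts in all (adjusted p = 1.25e-11). Il6 held 0.136, 0.0352 and 0.176 CPM at 0 h and 1.85, 2.88 and 2.76 CPM at 1 h (20.8-fold, adjusted p = 5.06e-09), and Csf3, the neutrophil growth factor, reached only 0.631, 0.449 and 1.11 CPM. Lif, a cytokine of the interleukin-6 family, was higher throughout, at 22.3, 23 and 23.8 CPM at 0 h and 124, 126 and 153 CPM at 1 h (5.83-fold, adjusted p = 3.42e-16). Ifnb1, which encodes interferon-β, had 1 count over the 3 libraries at 0 h and 209 at 1 h. Its 2.36, 2.69 and 3.33 CPM at 1 h separated it from 0 h (adjusted p = 1.51e-10). The list of 26 interferon genes, which holds it, moved in both directions. Of these 9 rose (34.6%, against 7.13% of all genes tested) and 7 fell (26.9%, against 8.61%), with a median of -0.0463. Irf1, an early transcription factor of that list, rose 8.41-fold from 58.2, 59.5 and 58.2 CPM to 494, 472 and 515 CPM (adjusted p = 2.55e-20). Gbp5, a guanylate-binding protein gene, rose 3.53-fold and the antiviral gene Rsad2 3.15-fold.

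Adhesion molecules and the prostaglandin and nitric oxide enzymes rose in part. Icam1, a leukocyte ligand, was at 3.2, 3.34 and 2.61 CPM at 0 h and at 12.4, 10.3 and 12.3 CPM at 1 h. It rose 3.8-fold (log2 1.93, SE 0.12, adjusted p = 9.84e-11). Vcam1, of the same function, rose 2.42-fold from 11.4, 11.2 and 12.2 CPM to 30.7, 23.2 and 30.6 CPM (adjusted p = 1.85e-09). The third adhesion gene tested, Icam5, was called lower (5.83, 8.41 and 5.86 CPM at 0 h, 4.17, 3.92 and 4.32 CPM at 1 h), but without IFT88siRNA 0 h replicate 2, its highest library, the change was -0.50 on the log2 scale and under the fold threshold. Icam1 and Icam5 both overlap exons of the antisense gene Gm47079, and the counts were made without regard to strand. Ptgs2, which encodes the inducible cyclooxygenase COX-2, rose 15.3-fold from 36.7, 33.2 and 36 CPM to 554, 540 and 526 CPM (adjusted p = 1.86e-21). In its list 3 of 10 tested rose (30%, against 7.13% of all genes tested) and none fell (median 0.175). Slc7a2, an arginine transporter, rose 1.82-fold and Gch1, which makes a cofactor of nitric oxide synthase, 1.52-fold. The rise of Gch1 was under the fold threshold with upper-quartile scaling (0.51 on the log2 scale), on TPM (0.37) and without IFT88siRNA 0 h replicate 3 (0.57) or 1 h replicate 3 (0.54). Ptges, the prostaglandin E synthase gene (-0.14 on the log2 scale, SE 0.17), did not pass the test, and Nos2, the inducible nitric oxide synthase, held 4 counts over the 3 libraries at 0 h and was too low to test.

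The transcription factors of the immediate early response rose together. Of 11 AP-1 subunits 8 rose and none fell (median 2.92). Fosb stood at 3.24, 3.27 and 2.89 CPM at 0 h and at 855, 849.6 and 813 CPM at 1 h, a rise of 267-fold (log2 8.06, SE 0.068, adjusted p = 2.56e-24). Fos rose 17.9-fold from 12.7, 13.1 and 13.7 CPM to 211, 274 and 221 CPM, and its partner Jun 7.57-fold from 79.7, 85 and 84.7 CPM to 595, 699.5 and 596 CPM. Junb rose 19.2-fold, with part of its exons shared with Prdx2. Atf3, a stress-induced member of the family, was at 12.2, 10.9 and 12 CPM at 0 h and at 147, 148 and 155 CPM at 1 h (12.8-fold, adjusted p = 1.54e-20).

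Of 20 EGR, NR4A and IER early genes 17 rose and none fell, with a median of 3.16, the highest of the lists fixed here. Egr3, a zinc finger factor, held 12.6, 11.1 and 11.9 CPM at 0 h and 916, 824 and 939 CPM at 1 h. It rose 75.1-fold (log2 6.23, SE 0.069, adjusted p = 1.24e-22). Egr2, with the CArG box printed above, rose 40.3-fold from 7.81, 6.09 and 7.13 CPM to 276, 286 and 287 CPM, and Egr4 rose 178-fold from 15 counts in all at 0 h. The orphan nuclear receptor Nr4a1 was at 14.4, 16.2 and 13.2 CPM at 0 h and at 2184, 2174 and 2098 CPM at 1 h (147-fold, adjusted p = 6.82e-24). Its relative Nr4a3 rose 31.6-fold, from 2.9, 2.25 and 2.72 CPM to 92.6, 73.3 and 83.7 CPM. Krüppel-like factors rose less, with 9 of 13 raised (69.2%, against 7.13% of all genes tested) and a median of 0.772. They were led by Klf6 (7.18-fold, 157, 141 and 159 CPM to 1122, 1116 and 1046 CPM), Klf10 (5.21-fold), Klf2 (2.27-fold) and Klf7 (2.19-fold).

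Some of the genes that restrain MAP kinase signalling and mRNA stability rose, though most members of both lists did not pass the test. Of 17 MAP kinase phosphatases and Sprouty genes 7 rose (41.2%, against 7.13% of all genes tested), with a median of 0.149. In this list 1 gene fell (5.88%, against 8.61%), Dusp7, named after its value was seen, at -1.13 on the log2 scale. Errfi1, a feedback inhibitor of the EGF receptor, was at 69.3, 64.6 and 68.2 CPM at 0 h and at 1794, 1618 and 1716 CPM at 1 h (25.4-fold, adjusted p = 3.51e-22). Dusp1, the phosphatase that switches off p38 and JNK, rose 12.6-fold from 29.9, 32.9 and 30.8 CPM to 360.1, 485 and 339 CPM (adjusted p = 2.25e-16). Dusp5 and Dusp8, of the same family, rose by 3.56 and 3.33 on the log2 scale. Among 11 regulators of mRNA decay 3 rose (27.3%) and none fell (median 0.329). Zfp36, which encodes tristetraprolin and degrades cytokine mRNAs, held 22.5, 24.8 and 21.8 CPM at 0 h and 339, 447 and 360.1 CPM at 1 h (16.6-fold, adjusted p = 3.60e-18). Zc3h12a, the endonuclease regnase-1, rose 10.9-fold from 4.98, 5.67 and 6.21 CPM to 61.3, 58 and 64.6 CPM, and Zfp36l1, a relative of Zfp36, 2.86-fold. The EGF receptor ligand Ereg, which codes for epiregulin, rose 18.3-fold, from 45.7, 37.3 and 43.1 CPM to 805, 756 and 748 CPM, and Hbegf 2.76-fold. In their list 2 of 7 rose (28.6%, median 0.173).

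Of 20 survival and stress genes 10 rose and 1 fell (median 0.759). Btg2, an antiproliferative gene, was at 107, 107 and 109.6 CPM at 0 h and at 1167, 1158 and 1124 CPM at 1 h (10.7-fold, adjusted p = 1.79e-21). Plk2 rose 10.1-fold, Gadd45b 7.79-fold and Gadd45g 6.73-fold. The member that fell, Ddit4, an inhibitor of mTOR named after its value was seen, went from 94, 102 and 95.4 CPM to 38.2, 42.2 and 42.8 CPM.

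Targets of serum response factor and YAP made a further group, with 10 of 16 raised (62.5%, against 7.13% of all genes tested) and none lowered (median 0.79). Cyr61, a matricellular signalling gene, was already abundant at 756, 765 and 764 CPM at 0 h and reached 6412, 7098 and 6438 CPM at 1 h (8.72-fold, adjusted p = 1.41e-20). Ankrd1, a YAP target, rose 7.59-fold, and Ctgf 6.91-fold from 203, 201 and 202 CPM to 1370, 1364 and 1450 CPM. Acta2, smooth muscle actin, rose 2.36-fold from 1306, 1458 and 1510 CPM to 3268, 3148 and 3673 CPM (adjusted p = 1.59e-12).

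The genes of the cholesterol synthesis list rose together: 20 of 22 rose, none fell, and the median was 1.11, against the background of 7.13% raised. Insig1, which holds the sterol sensor in the endoplasmic reticulum, was at 87, 79.7 and 84.9 CPM at 0 h and at 393, 386 and 364 CPM at 1 h. It rose 4.54-fold (log2 2.18, SE 0.050, adjusted p = 8.05e-18). Hmgcs1, an enzyme early in the pathway, rose 2.9-fold from 144, 121 and 136 CPM to 405, 377 and 379 CPM, with part of its exons shared with Gm48342. Ch25h, whose product 25-hydroxycholesterol represses this pathway, rose 47.6-fold from 0.204, 0.211 and 0.247 CPM to 10.6, 10.5 and 11.1 CPM (adjusted p = 1.86e-15).

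Genes of the cartilage matrix moved in both directions, and some of the proteases that cut it rose. Of 21 metalloproteases and inhibitors 4 rose (19%, against 7.13% of all genes tested) and none fell (median 0.108). Adamts1 rose 5.53-fold from 108, 114 and 107 CPM to 632, 603 and 590.5 CPM (adjusted p = 6.42e-19). Adamts5, an aggrecan-cleaving enzyme, rose 1.74-fold from 172, 170.1 and 169.5 CPM to 311, 291 and 287 CPM, Adamts9 1.85-fold and the inhibitor gene Timp3 1.81-fold, the last with exons shared with Syn3. Mmp13, the main collagenase of cartilage, was at 0.75, 0.563 and 0.424 CPM at 0 h and at 0.547, 0.449 and 0.74 CPM at 1 h, which overlapped, and Mmp3 was too low to test. Of 16 cartilage matrix and Sox genes 3 rose (18.8%) and 4 fell (25%, against 8.61% of all genes), with a median of -0.236. Col2a1, the main cartilage collagen, fell from 12.4, 11.2 and 11.4 CPM to 4.04, 6.21 and 4.77 CPM (log2 -1.21, SE 0.12, adjusted p = 8.81e-08). Col9a3 fell too (log2 -1.17), as did the lubricin gene Prg4 (log2 -0.78, SE 0.21) and Matn1. The call of Prg4 was lost in DESeq2 (adjusted p = 0.052), and that of Matn1 in DESeq2 (adjusted p = 0.163), in the model of all 36 libraries and without IFT88siRNA 0 h replicate 2 (-1.01) or 1 h replicate 2 (-0.93) or 3 (-1.13). In the other direction, Sox6, a partner of Sox9, rose 1.78-fold, Comp was also raised, and Col11a1 rose 1.68-fold from 205, 199.6 and 190.4 CPM to 348, 313 and 336 CPM. Sox9, the master factor of chondrocytes, was lower in all 3 libraries at 1 h (32.6, 35.8 and 32.8 CPM at 0 h, 22.6, 22.5 and 23.2 CPM at 1 h), and its change of -0.57 on the log2 scale (SE 0.062, adjusted p = 3.32e-07) was just under the fold threshold. The 11 chondrocyte markers, some of which are in this list, summed to 276 to 292 CPM at 0 h and to 399 to 434 CPM at 1 h, and their part in these counts was not tested.

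**Figure D3:**
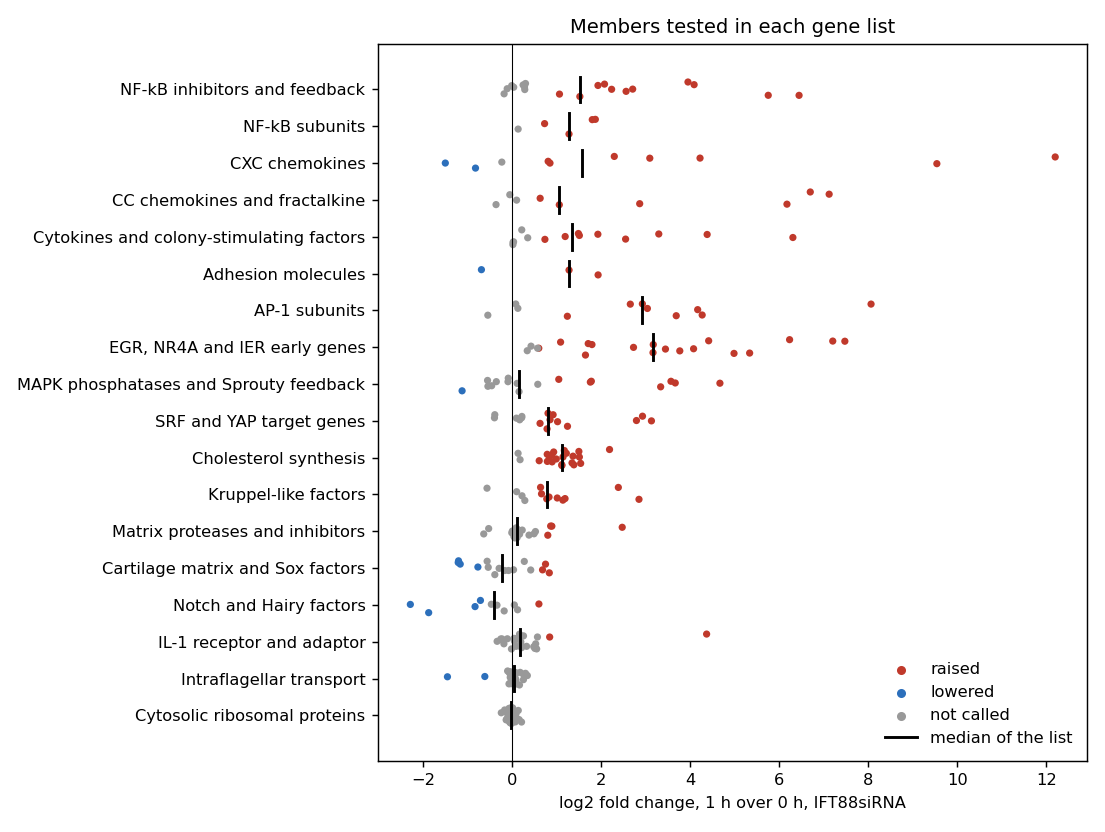
Each row is a gene list and each point a member tested, placed by its log2 fold change at 1 h over 0 h in IFT88siRNA cells and coloured by call, with a bar at the median of the list. The early transcription factors, NF-κB feedback genes and cholesterol genes lie mostly to the right of 0, and the ribosomal protein and intraflagellar transport genes gather around it; the point of Cxcl2, at the far right, depends on the prior count.

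The steepest falls were in genes of varied function. Cyp1a1, a target of the aryl hydrocarbon receptor, was at 6, 6.37 and 5.75 CPM at 0 h and at 0.21, 0.336 and 1.11 CPM at 1 h, and was the only gene to fall more than 8-fold among those with a mean of at least 50 counts (log2 -3.45, SE 0.26, adjusted p = 2.09e-09). Med18, a Mediator subunit, went from 10.3, 9.32 and 9.35 CPM to 1.6, 1.61 and 1.98 CPM (log2 -2.48, adjusted p = 5.51e-12). Ppp1r3c, a regulator of glycogen, fell by 2.33 on the log2 scale to 1.89, 1.2 and 1.52 CPM. Fgf2, a growth factor bound in cartilage matrix, fell from 21, 18.7 and 18.6 CPM to 6.4, 5.91 and 6.33 CPM (log2 -1.65, SE 0.088, adjusted p = 1.08e-11), with part of its exons shared with Nudt6. The other named falls included the zinc finger genes Zfp85 (log2 -2.18) and Zfp39 (-1.85) and the ubiquitin ligase adaptor gene Kbtbd8 (-1.83), with Gm12258 (-1.90), Gm44168 (-1.82) and 9930012K11Rik (-2.19).

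Of 10 Notch pathway and Hairy genes tested 4 fell (40%, against 8.61% of all genes tested) and 1 rose, Hes1 (10%, against 7.13%). The median was -0.41. Hey1, a repressor that Notch induces, was at 3.24, 4.29 and 4.34 CPM at 0 h and at 0.926, 0.934 and 1.36 CPM at 1 h (log2 -1.88, SE 0.19, adjusted p = 1.46e-07). Nrarp, a feedback inhibitor of Notch at few counts, fell too (log2 -2.29, SE 0.47). Hey2 fell to 2.69, 3.33 and 2.3 CPM (log2 -0.72) and the ligand gene Jag2 to 0.631, 1.42 and 0.782 CPM (log2 -0.84), the latter call being lost without IFT88siRNA 1 h replicate 1 or 3 (-0.62 and -0.71). Of 12 SOCS and PIAS genes 2 fell (16.7%, against 8.61% of all genes tested) and none rose (median -0.0192). Socs3, a brake on interleukin-6 signalling, went from 24.8, 26.8 and 26.8 CPM to 12.8, 13 and 14.6 CPM (log2 -0.96, SE 0.073, adjusted p = 2.27e-09), and Socs5 fell by 0.64 on the log2 scale. Txnip, a glucose-responsive inhibitor of thioredoxin, fell from 409, 378 and 405 CPM to 216, 225 and 252 CPM (adjusted p = 5.05e-10). In its list of 20 quiescence genes 2 rose, Cited2 (7-fold) and Per1 (3.78-fold), and 1 fell. These shares (10% and 5%) were near those of all genes tested (7.13% and 8.61%). Of 18 FGF, BMP and activin genes 2 rose and 2 fell (11.1% each, against 7.13% and 8.61% of all genes tested, median 0.11). The stress cytokine gene Gdf15 rose 2.47-fold and Gdf5, a joint morphogen, 1.52-fold. Inhbb, an activin subunit gene, fell (log2 -1.19) together with Fgf2. The call of Gdf5 was lost in DESeq2 (adjusted p = 0.141), with upper-quartile scaling, on TPM and without IFT88siRNA 0 h replicate 1 (0.61 on the log2 scale) or 3 (0.42) or 1 h replicate 1 (0.58) or 3 (0.60).

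Of 29 intraflagellar transport genes none rose and 2 fell (6.9%, against 8.61% of all genes tested), Ttc30b (12, 10.4 and 10.6 CPM at 0 h, 6.82, 7.03 and 7.65 CPM at 1 h, log2 -0.62) and Ttc30a1 (log2 -1.46), near-identical copies between which reads can be split wrongly, and the median was 0.0429. The call of Ttc30b was lost without IFT88siRNA 0 h replicate 1. Of 11 Hedgehog pathway genes, which signal through the cilium, 1 rose and 1 fell (9.09% each, against 7.13% and 8.61% of all genes tested). Boc rose 2.03-fold, and Hhip, at under 0.5 CPM, fell by 1.10 on the log2 scale. The call of Hhip was lost in DESeq2 and without any of 5 of the 6 libraries. The cilium-associated genes Ttbk2 (log2 0.12, SE 0.078) and Nphp4 (-0.047, SE 0.11) overlapped between 0 h and 1 h. Of 42 genes for cytosolic ribosomal proteins none rose and none fell, with changes between -0.25 and 0.205 on the log2 scale. Of the 17 genes that the study itself names from these libraries 15 could be tested, of which 7 rose and none fell. That list was chosen on these samples and is no independent evidence of its direction.

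The genes that rose most were short. Over the protein-coding genes tested, the median span from start to end was 24226 bases with 9 exons. It was 19707 bases with 8 exons for genes raised, and 8116 bases with 5 exons for those raised more than 4-fold, 61.1% of which span under 10 kb against 24.4% of all. Genes lowered were also shorter, at 13599 bases and 5 exons. Rises and falls differed by starting level. Of genes under 1 CPM at 0 h, 13.1% rose and 13.8% fell. Some of these passed the count filter only through their 1 h libraries, and the groups are cut on the 0 h level. Their share raised is therefore fixed in part. Between 1 and 10 CPM 7.91% rose and 18.9% fell, between 10 and 100 CPM 5.65% rose and 4.42% fell, and of those at 100 CPM or more 5.52% rose and 1.55% fell, although the power to call a change also moves with the level.

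Motifs were counted in the 250 bases before each annotated RefSeq start, for 697 of the 1075 raised genes. This is under 80% of them, so the shares are a description of the genes in that table. The NF-κB consensus was found on either strand in 8.85% of windows of genes tested and in 11.6% of those of raised genes. In genes raised more than 4-fold it was in 19.4% (25 of 129 windows, from 97 genes, some with several starts). The CArG box was in 1.2%, 3.14% and 6.2% of the same sets, the cyclic AMP response element TGACGTCA in 2.52%, 3.59% and 9.3%, and the AP-1 site TGANTCA, which does not match within the former, in 4.64%, 6.51% and 10.1%. In windows of lowered genes the 4 shares were 8.19%, 1.1%, 2.8% and 5.19%. In all 32851 windows of the table, genes not tested included, they were 7.25%, 1.47%, 1.55% and 6.75%.

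Raised genes differed in when they peaked, and a peak at 1 h did not always mean a return to the 0 h level. Of the 1075 raised genes, 457 (42.5%) had their highest mean of the 6 time points at 1 h, 424 (39.4%) at 2 h and 142 (13.2%) at 4 h. These later levels come from libraries outside the comparison and are given without a test. The genes were chosen on their 1 h level, so the share with a peak at 1 h is fixed in part. Fosb had a mean of 839 ± 22.8 CPM (SD, n = 3) at 1 h, 106 ± 10.8 at 2 h and 7.31 ± 0.396 at 4 h. Nfkbia went from 754 ± 25.8 CPM at 1 h to 356 ± 18.9 at 2 h and was still at 133 ± 3.82 at 24 h. Other genes had only begun at 1 h. Il6 had 2.5 ± 0.56 CPM at 1 h and 52.7 ± 2.99 at 4 h, and Nos2, too low to test at 1 h, had 232 ± 13.7 CPM at 4 h. Cxcl10 was at 3237 ± 192 CPM at 4 h and Icam1 at 82.2 ± 8.93 CPM. Falls often turned: Fgf2 was at 6.21 ± 0.268 CPM at 1 h and at 131 ± 6.51 at 4 h, and Socs3 at 13.5 ± 0.964 and 127 ± 10.7 CPM. Of the 1298 lowered genes, 635 (48.9%) had their lowest mean at 1 h, a share fixed in part in the same way.

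**Figure D4:**
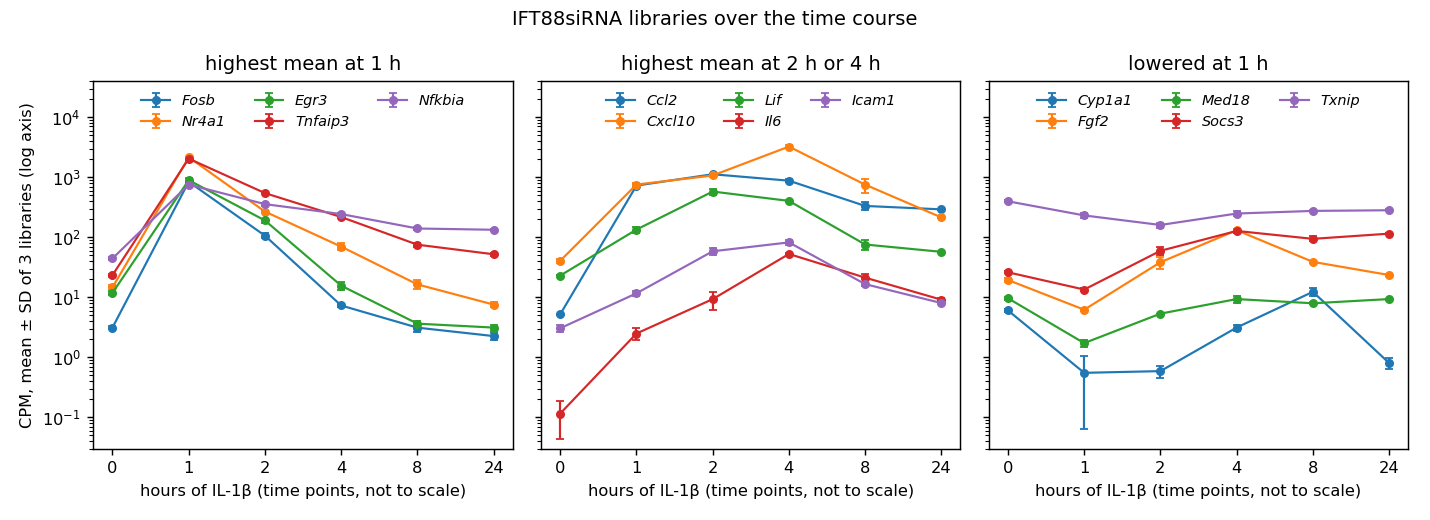
Mean CPM (log axis) with the SD of 3 IFT88siRNA libraries at 6 time points, set at equal steps, for 5 genes whose mean is highest at 1 h, 5 whose mean is highest at 2 h or 4 h, and 5 that fell at 1 h. Fosb drops from 839 to 7.31 CPM between 1 h and 4 h while Cxcl10 climbs to 3237 CPM, and Fgf2 and Socs3 end above or near their 0 h level after the dip at 1 h.

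The response was next set beside that of NT cells, whose 6 libraries are separate from those above. In NT cells 1453 genes rose (9.7% of 14974 tested) and 1473 fell (9.84%). Over the 14734 genes tested in both groups, 911 rose in both, which is 86.8% of those raised in IFT88siRNA and 64.7% of those raised in NT. Falls were shared by 959 genes, 76.1% and 68.5% of the 2 lists, and 3 genes were called in opposite directions. Across these genes the log2 changes had a Pearson r of 0.905 and a Spearman rho of 0.839, as a description of genes that share their libraries. Of the 1547 genes raised in either group, 1075 had the larger rise in NT, with a median log2 change of 0.744 in IFT88siRNA and 0.905 in NT. This set holds more genes called in NT (1408) than in IFT88siRNA (1050), so these values are fixed in part by the choice of genes. The spread between replicates also differed (chi-square per degree of freedom 2.33 to 3.15 in NT and 1.96 to 6.61 in IFT88siRNA). The power to call a rise may therefore differ between the groups, and its part in these counts was not tested.

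**Figure D5:**
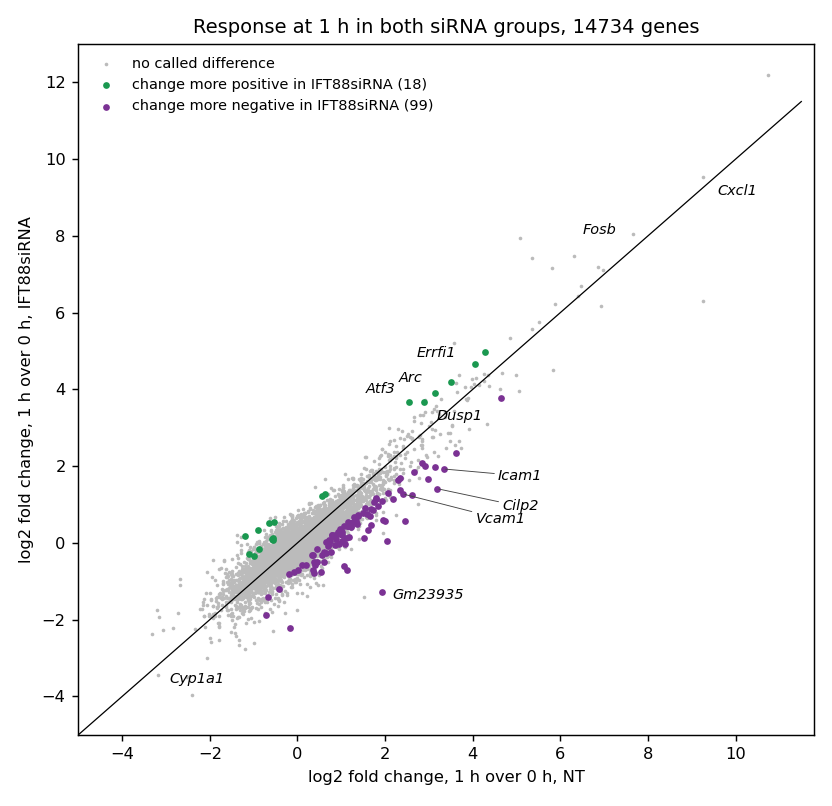
Each point is a gene tested in both siRNA groups, with its log2 fold change at 1 h over 0 h in NT on the x axis and in IFT88siRNA on the y axis, and the line marks equal change. Most genes lie along the line; the 18 genes in green had a more positive change in IFT88siRNA, among them Atf3 and Arc, and the 99 in purple a more negative one, among them Icam1, Vcam1 and Cilp2.

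The difference in response was tested for 15711 genes in the 12 libraries. It was called for 117 (0.745%), of which 18 (0.115%) changed more positively in IFT88siRNA and 99 (0.63%) more negatively. Of the 99, 80 rose in NT and 32 rose in IFT88siRNA. Without IFT88siRNA 0 h replicate 2 the count was 86, and with NT 1 h replicate 1 left out as well it was 66 (7 more positive and 59 more negative). The model that tests whether a difference exceeds 1.5-fold called 2 genes.

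Smaller rises were found in both leukocyte ligands. Icam1 was at 3.72, 3.3 and 3.59 CPM in NT at 0 h and at 37.9, 28.3 and 42.1 CPM at 1 h. Its 1 h levels in IFT88siRNA, given above, lay wholly below these, while the 0 h levels overlapped, and its log2 change was 1.93 in IFT88siRNA against 3.34 in NT (difference -1.42, SE 0.22, adjusted p = 3.53e-04). Vcam1 held 11.4, 12.4 and 11 CPM in NT at 0 h and 63.5, 51 and 72.4 CPM at 1 h (difference -1.15, SE 0.16, adjusted p = 1.49e-04). Cilp2, a matrix gene of cartilage, rose from 6.03, 5.38 and 4.59 CPM to 10.8, 14.9 and 16.9 CPM in IFT88siRNA and from 4.52, 4.58 and 3.55 CPM to 42.2, 33.5 and 40.8 CPM in NT (difference -1.78, SE 0.21, adjusted p = 1.36e-05), so its depleted libraries were the higher at 0 h and the lower at 1 h. Sox9, lower at 1 h in depleted cells, was at 23.1, 21.8 and 21.2 CPM in NT at 0 h and at 24.1, 22.3 and 25 CPM at 1 h, without a call (difference -0.68, SE 0.086, adjusted p = 4.42e-05). Adamts9 rose 1.69 on the log2 scale in NT (difference -0.81, adjusted p = 1.63e-04). Its mean was higher in IFT88siRNA than in NT at 0 h (16.6 against 8.19 CPM) and at 1 h (30.7 against 26.5 CPM). The imprinted noncoding RNA H19 rose in NT from 1.52, 1.65 and 1.51 CPM to 6.2, 5.21 and 7.48 CPM. Its change in IFT88siRNA was under the fold threshold (difference -1.43, adjusted p = 8.88e-04).

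Larger rises were called for some early genes and a smaller one for another. Cebpb, a transcription factor of the EGR, NR4A and IER list named after its value was seen, rose 1.08 on the log2 scale in IFT88siRNA and 1.93 in NT (difference -0.85, adjusted p = 0.0325), with 4.5, 8.72 and 5.01 CPM at 0 h in IFT88siRNA. Atf3 was at 23.5, 23.4 and 24.8 CPM in NT at 0 h and at 134, 138 and 150.1 CPM at 1 h, so its 0 h levels were all lower in IFT88siRNA and its 1 h levels overlapped those of NT (difference 1.12, SE 0.079, adjusted p = 1.08e-08). Arc, an early gene best known from neurons, was at 51.4, 52 and 49.8 CPM at 0 h and 721, 789 and 786 CPM at 1 h in IFT88siRNA, and at 80.3, 77 and 70.7 CPM and 659.5, 676 and 672 CPM in NT (difference 0.77, SE 0.064, adjusted p = 8.55e-08). Errfi1 (difference 0.62, adjusted p = 9.56e-07), Ereg (0.69, adjusted p = 6.81e-06), Dusp1 (0.76, adjusted p = 0.00363) and Nr4a3 (0.69, adjusted p = 0.035) had larger rises too. Over all 18 genes with a more positive change, the mean at 0 h was lower in IFT88siRNA than in NT in 18 and the mean at 1 h in none. Over the 99 with a more negative change it was lower at 0 h in 11 and at 1 h in 88. A difference in change is the gap between the siRNA groups at 1 h less the gap at 0 h, so these counts describe where each gap lies and are fixed in part by the choice of genes.

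By list, the log2 change was larger in IFT88siRNA for 8 of 11 AP-1 subunits, 16 of 20 EGR, NR4A and IER genes, 16 of 20 survival and stress genes and 19 of 22 cholesterol genes. It was larger for 3 of 12 CXC chemokines, 5 of 17 cytokines, 7 of 19 NF-κB inhibitors and none of 4 adhesion molecules. Over all genes tested the share was 49.5%. Over genes raised in either group, a set that holds more NT calls, it was 30.2%. Such counts can rest on small shifts: the change was larger for 41 of 42 ribosomal protein genes, at a median difference of 0.158 and with none called, and the median difference was 0.0874 for the cholesterol genes and 0.275 for the AP-1 subunits. Of single genes in the lists, Cxcl1 (difference 0.27, SE 0.15, adjusted p = 0.425), Ccl2 (0.15, SE 0.11, adjusted p = 0.544) and Tnfaip3 (0.033, SE 0.070, adjusted p = 0.869) did not pass the test of the difference. Others passed the adjusted p but lay under the fold threshold, in both directions. Jun (0.53, adjusted p = 1.89e-04) and Btg2 (0.49, adjusted p = 3.98e-06) had the larger rise in IFT88siRNA. Irf1 (-0.46, adjusted p = 1.35e-04) and Adamts1 (-0.38, adjusted p = 4.00e-04) had the smaller rise there. Nfkbia rose 4.08 on the log2 scale in IFT88siRNA and 4.37 in NT, a difference of -0.29 (SE 0.059, adjusted p = 0.0051) that was under the fold threshold. Tnf rose to 13.2, 11.3 and 12.3 CPM in NT, above each depleted library at 1 h, but its difference of -3.01 (SE 1.31) rested on 5 and 1 counts at 0 h and did not pass the test (adjusted p = 0.232).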

How the data were processed

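Poly(A) RNA libraries were read as paired ends over 3 lanes. The authors aligned the reads to GRCm38 with HISAT2 2.1.0, counted them per gene with featureCounts (Subread 1.6.3) at default settings, which ignore strand, and deposited raw counts. TPM values per gene, which the authors made with Salmon 0.9.1, served here in alternatives only. The labels give the siRNA at 50 nM, and the methods give another concentration.

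Groups came from the labels. The counts were tested in R 4.3.3 with edgeR 4.0.16 (TMM scaling, filterByExpr, quasi-likelihood F-test, two-sided, Benjamini-Hochberg adjustment over all genes tested). A gene was called at an adjusted p under 0.05 and a fold change over 1.5, in the 6 libraries of the comparison alone, or in 12 for the difference in response. SEs were derived from the log2 fold change and its F statistic. CPM values were scaled by TMM over all 36 libraries and are printed in the order of replicates 1 to 3. The test was checked on simulated counts: in the comparison of 15074 genes it recovered 88% of 2-fold and 99% of 4-fold changes and called 0.0134% of unchanged genes, and for the difference in 15711 genes it recovered 79% and 96% and called 0.0129%.

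Genes are named by a rule: the 15 largest rises and 10 largest falls with a mean of at least 50 counts and the same direction in all 3 pairs of replicate numbers, the genes the study names, up to 4 called genes per list with the largest change, and the 5 largest differences in each direction. The members, lists and rule were chosen with earlier results of these data known, and Nfkb1, Ppbp, Cxcl15, Dusp7, Ddit4, Hes1, Comp, Cebpb and the gene families of the closing section were named after their values were seen. Exons of Jun, Ctgf, Cxcl10, Hmgcs1, Vcam1, Adamts9, Slc7a2, Irf1, Ereg, Txnip, Ttbk2, Sox4, Scand1 and Prg4, among others, also overlap another gene, so these counts are uncertain. Exon overlaps and spans came from the GENCODE M21 annotation of GRCm38, and promoters from RefSeq. Some genes named by the rule are not reported here. Alternatives were DESeq2 1.42.0, its size factors, upper-quartile scaling, no filter, a test of the fold itself (glmTreat), no fold threshold, 1 model of all libraries, the replicate number as a term, log2(TPM + 1) in limma 3.58.1 for genes at 1 TPM or more in 3 libraries, a pseudocount of 0.1, no TPM filter, and leaving out libraries. Python 3.11.15 with matplotlib 3.10.9 made the figures.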

Additional observations from a re-analysis of the deposited data

Results flagged for a closer look

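The change at 1 h differed between IFT88siRNA and NT, by the test of the difference itself, for 117 genes. Those named by the rule, 22 in all, are given here. Cebpb, another of the 117, was named after its value was seen and is given above. The difference in log2 change was positive for Atf3 (1.12), Lyrm7 (0.83), Arc (0.77), Dusp1 (0.76), Klhdc1 (0.72), Nr4a3 (0.69), Ereg (0.69) and Errfi1 (0.62). Klhdc1 and Lyrm7, a mitochondrial assembly factor, were called lower in NT (log2 -0.88 and -1.11) and not in IFT88siRNA (-0.16 and -0.28).

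The difference was negative for Cilp2 (-1.78), H19 (-1.43), Icam1 (-1.42), Gdf5 (-1.35), Hey1 (-1.17), Prg4 (-1.15), Vcam1 (-1.15), Adamts9 (-0.81), Icam5 (-0.71), Sox9 (-0.68) and Sox4 (-0.63). Hey1 fell in both groups, and further in IFT88siRNA (log2 -1.88, against -0.71 in NT). Sox4 was at 69.2, 101 and 75.5 CPM at 0 h and 80.2, 87.2 and 82.4 CPM at 1 h in IFT88siRNA, which overlapped, and rose in NT from 49.8, 51.2 and 42.7 CPM to 85.4, 73.3 and 68 CPM.

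For Gm23935 (-3.21), B3gnt2 (-1.84) and Scand1 (-1.67) the size of the difference moved with 2 libraries. Scand1 was at 10.6, 29.3 and 12.2 CPM in IFT88siRNA at 0 h and at 23, 14.8 and 10.7 CPM in NT at 1 h, so IFT88siRNA 0 h replicate 2 and NT 1 h replicate 1 were the highest of their groups, and the same libraries were highest for Gm23935 and B3gnt2. With both left out the differences were -1.32 for Gm23935 (adjusted p = 0.000312), -1.08 for B3gnt2 (adjusted p = 0.0564) and -0.75 for Scand1 (adjusted p = 0.0419), and that of Sox4 was -0.36 (adjusted p = 0.0346), under the fold threshold. Without IFT88siRNA 0 h replicate 2 alone, the fall of Gm23935 in IFT88siRNA was -0.22 on the log2 scale. The part of these libraries in other results was not tested beyond the counts given here.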

How the results depend on the processing

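The counts of 1075 raised and 1298 lowered genes were 1043 and 1030 in DESeq2 (963 and 990 of them shared), and stayed within 1.5 times for DESeq2 size factors, upper-quartile scaling (34.9% of calls raised, against 45.3%), no filter, and 1 model of all libraries. Tested on log2(TPM + 1), 650 genes were raised (582 of them shared), with a pseudocount of 0.1 it was 700 (630 shared), and without the TPM filter 642 (570 shared). With the fold tested in the model, 628 rose and 483 fell, and with no fold threshold 3700 and 3675. In NT the same settings gave 872, 943 and 842 raised on TPM, 948 raised and 682 lowered with the fold tested, and 4487 and 4457 with no fold threshold. The 117 differences became 45, 40 and 29 on TPM (26, 27 and 15 of them shared). They became 2 with the fold tested, 634 with no fold threshold, and 66 without IFT88_0h replicate 2 and NT_1h replicate 1, an alternative chosen after seeing the data. Leaving out 1 library at a time gave 1058 to 1104 raised and 1171 to 1373 lowered genes in IFT88siRNA, 1425 to 1486 and 1437 to 1557 in NT, and 84 to 140 differences. The causes of these shifts were not tested.

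Of 1578 changes of 122 named genes across settings, 1529 kept their direction and side of the threshold. B3gnt2 reversed, from -0.70 on counts to 0.23 on log2(TPM + 1), and shares exons with Gm28048. Of the 22 named differences, those of Arc, Atf3, Cilp2, Icam1, Sox9 and Vcam1 kept their call in all 20 settings. That of Klhdc1 kept it in 13, Nr4a3 in 11, Lyrm7 in 7, Icam5 in 8, and Gdf5 and Prg4, for which 19 settings gave a value, in 8 and 9. Without IFT88_0h replicate 2 no list count moved by more than 1.

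Same-numbered libraries deviated together only in part (correlations of 0.0625 to 0.419 in IFT88siRNA and of -0.013 to 0.0865 in NT), so the numbers were not taken to pair the samples. With the replicate block 1076 genes rose and 1314 fell, 1439 and 1442 in NT, and 156 differences were called.

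Depth limits genes of few counts: 257 raised genes were under 1 CPM at 0 h, and 12999 genes with a count were not tested.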

Other observations

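The falls at 1 h in IFT88siRNA cells held gene families that no list above covers, picked after their values were seen. Of 311 genes whose symbol begins with Zfp, most of them zinc finger factors, 119 fell (38.3%, against 8.61% of all genes tested) and 9 rose, with a median of -0.43 on the log2 scale. In NT 124 of them fell, 108 of these in both groups. Of the 20 with the highest levels only Zfp503, a developmental repressor, was called lower, at 110.3, 128 and 111 CPM at 0 h and 52.8, 64.4 and 53.6 CPM at 1 h (log2 -1.03, SE 0.070, adjusted p = 3.88e-10, edgeR), and the other 19 were not called, among them Zfp91 (0.16), Zfp148 (0.0099) and Zfp644 (0.53).

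Of 30 clustered histone genes 24 fell (80%) and none rose, with a median of -1.01, and 15 fell in NT, all of them among the 24. Hist1h1e, a linker histone gene, was at 4.67, 4.61 and 4.59 CPM at 0 h and 1.56, 1.27 and 1.56 CPM at 1 h (log2 -1.66, SE 0.15, adjusted p = 2.54e-08, edgeR). Hist1h2be held 7.19, 5.88 and 6.53 CPM at 0 h and 2.44, 2.32 and 3.29 CPM at 1 h. Messages of these genes mostly lack a poly(A) tail, so poly(A) libraries hold a part of them. None of the 30 had a called difference between the siRNA groups.

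By gene class, 24.7% of 336 long intergenic RNAs fell and 9.23% rose, against 7.68% and 7% of protein-coding genes. Of 223 processed transcripts 22.9% fell and 5.83% rose, and of 817 processed pseudogenes 2.33% fell and 5.51% rose. The classes were not matched for level, and of all genes between 1 and 10 CPM at 0 h 18.9% fell. None of the 20 genes of the mitochondrial genome tested rose or fell.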
